A study of Mus musculus with 24 samples.

Results

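RNA was compared between myoblasts depleted of Keap1 and of Fem1b together (siFem1b/Keap1) and myoblasts depleted of Keap1 alone (siKeap1), to show what the loss of Fem1b adds when Keap1 is already low. The groups were chosen by their siRNA labels and hold 12 of the 24 sequencing runs of the series, which are 2 runs of each of 6 libraries among 12. The other 6 libraries are cells given a non-targeting siRNA (siCont) and cells given the Fem1b siRNA on its own (siFem1b), and they serve as a reference below. All cells are C2C12, a mouse myoblast line whose cells fuse into myotubes when serum is withdrawn, here kept undifferentiated, below confluence and in serum. RNA was taken 48 h after transfection and selected for poly(A). The compared groups share the Keap1 siRNA, the line, the medium and the time, and differ by the Fem1b siRNA. Each gene was targeted with 1 siRNA sequence, and the amount of siRNA in each group is not given in the sources used here. The 3 libraries of a group are labelled as repeats, not as separate cultures, so the p-values speak only for the scatter among these libraries, part or all of which could be technical.

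KEAP1 is the substrate receptor of a CUL3 ubiquitin ligase that holds the transcription factor NRF2, encoded by Nfe2l2, at a low level. When KEAP1 is lost or oxidised, NRF2 accumulates and drives genes of glutathione synthesis, thioredoxin recycling, NADPH production and quinone detoxification. FEM1B is a substrate receptor of CUL2 ligases that is known to recognise FNIP1, a partner of folliculin, when its cysteines are reduced for a long time, the state called reductive stress. FNIP1 and folliculin act on the lysosomal nutrient pathway and on the supply of mitochondria, and C2C12 myoblasts are the cells in which this response was worked out.

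The siRNAs are shown first because their seeds return in the results. Each is given as its sense strand, written 5′ to 3′, and the capitals mark the 7 bases that pair with positions 2 to 8 of the opposite, guide strand, the seed through which an siRNA can act on other transcripts.
siFem1b: gaagaucagugCAGAAUUa
siKeap1: gcgccaauguuGACACGGa
siCont: ugguuuacaugUUUUCUGa
The siFem1b sequence lies in the coding part of exon 2 of 2 of Fem1b (GRCm38, minus strand, chr9:62796575-62796593). The siKeap1 sequence lies in the coding part of Keap1 (GRCm38, minus strand, chr9:21231850-21231868), in exon 4 of 6 of 4 annotated transcripts and exon 3 of 5 of another.

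The 6 libraries held 31.9 M to 39.3 M estimated counts over 36047 genes, of which 14584 had enough counts to be tested. The first principal component of the 12 libraries carried 55.5% of the variance and parted those with siFem1b from those without. Replicates 1 and 2 were more alike in each compared group (chi-square per degree of freedom 2.43 and 2.47) than either was to replicate 3 (5.62 to 7.01). That is within the range between both runs of a single library (2.34 to 2.87), and above counting error alone. Mitochondrially encoded genes took 1.82% to 1.92% of the counts in siKeap1 and 2.18% to 2.64% in siFem1b/Keap1, and the part of this gap in other results was not tested. All 10 listed markers of the myoblast line, among them Des, Cdh15, Itga7 and Myod1, were above the filter. Summed markers of leukocytes read 17.5 to 19.2 CPM in siKeap1 and 19.8 to 21.1 in siFem1b/Keap1, with Adgre1 at 0 in all 6 libraries. Those of endothelium read 2.84 to 3.27 and 3.91 to 4.49, with Cldn5 and Emcn at 0. CPM are estimated counts per M counts (M stands for 10 to the power of 6), scaled by library size and a normalisation factor.

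Fem1b was depleted in each library given its siRNA, and Keap1 was low throughout. Fem1b (chromosome 9, 62791821 to 62811934, GRCm38) read 102, 106 and 97.8 CPM in the siKeap1 libraries and 12.4, 14.2 and 11.6 CPM in siFem1b/Keap1. The groups did not overlap, and Fem1b fell 8.01-fold (log2 change -3.00 with SE 0.061, adjusted p = 2.2e-17). Keap1 (chromosome 9, 21229730 to 21239361) read 10.2, 11.1 and 8.58 CPM in siKeap1 and 9.57, 9.19 and 9.38 CPM in siFem1b/Keap1, against 60.6, 63.3 and 61.3 CPM in siCont. The compared groups overlapped for Keap1 (log2 fold change -0.09, SE 0.083, adjusted p = 0.36). Without replicate 3 of siKeap1 it passed the threshold at -0.19. Of 18 tested parts and receptors of CUL2 and CUL3 ligases, among 21 listed, 3 rose and 3 fell. Apart from Fem1b these were small changes, such as 1.17-fold down for Klhdc2 and 1.22-fold up for Vhl, both substrate receptors of CUL2.

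Across all genes, 9268 of 14584 (63.5%) passed an adjusted p of 0.05 in edgeR's quasi-likelihood test, 4667 higher (32.0%) and 4601 lower (31.5%) in siFem1b/Keap1. A change of at least 1.5-fold was found for 2143 genes upward (14.7%) and 1319 downward (9.04%). For 10126 genes (69.4%) no siFem1b/Keap1 library fell within the range of the siKeap1 libraries. With library totals alone as the scale, 5680 were higher and 3528 lower, and the median log2 change of all genes moved to 0.098. Counts for gene groups below are to be read against these shares, and single changes as relative to the bulk of genes. In RNA of a whole culture, fewer cells that express a gene and less of its RNA per cell cannot be told apart.

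The 12 largest rises among genes of at least 5 CPM held C1qtnf3, a secreted C1q-like protein, at 57.9-fold, and the muscle genes Myl1 (37.3-fold), Neb (13.1-fold) and Synpo2l (10.4-fold). Also among them were the membrane metalloproteinase Mmp15 (18.2-fold), the lysosome-linked glycoprotein Gpnmb (16.6-fold), the interleukin 1 receptor antagonist Il1rn (13.1-fold) and the fatty acid carrier Fabp3 (12.4-fold). The rest were Fndc1 (11.9-fold), the rhomboid protease Rhbdl2 (10.7-fold), the alpha globin Hba-a2 (10.3-fold), whose reads are hard to part from its near-identical copy, and Lix1 (9.90-fold). The 12 largest falls held Fem1b itself and 5 genes known as NRF2 targets or of the same families. These were Gsta2 (21.2-fold), Slc7a11 (14.3-fold), Gsta1 (11.2-fold), Aldh3a1 (10.2-fold) and Ftl1 (6.76-fold). The others were the keratin Krt16 (9.72-fold), the T-cell receptor segment Trdc (7.31-fold), the side-chain cleavage enzyme Cyp11a1 (6.12-fold), the proliferin Prl2c2 (5.83-fold), Calr3 (4.83-fold) and the neurotrophin receptor Ngfr (4.75-fold).

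Genes that NRF2 is known to drive were lower in most cases when Fem1b was depleted on top of Keap1. Of 47 tested targets among 49 listed, 39 fell and 4 rose, with a median log2 change of -0.67 against 0.0033 for all genes tested. The list was drawn up with earlier results of these data known. In all 47 the siKeap1 mean lay above the siCont mean. The falls are thus counted from a group in which each member was raised, and the counts describe the list. Their summed level was 10645 to 11407 CPM in siCont, 19262 to 19399.8 in siKeap1 and 8966 to 9209 in siFem1b/Keap1. The sum is led by a few abundant genes, and gene by gene 29 of the 47 lay above siCont in all 3 siFem1b/Keap1 libraries, 11 lay below it and 7 overlapped it. Over all genes those shares were 35.3% above and 35.1% below.

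Slc7a11, the cystine carrier of the plasma membrane (chromosome 3, 49892526 to 50443614), read 161, 158 and 143 CPM in siKeap1 and 11.3, 9.17 and 11.9 CPM in siFem1b/Keap1. It fell 14.3-fold (log2 change -3.84 with SE 0.084, adjusted p = 2.8e-15), to below the 19.9, 17.9 and 20.3 CPM of siCont. Slc3a2, its partner chain, also fell 2.56-fold. Gclm, the modifier subunit of glutamate-cysteine ligase (chromosome 3, 122245557 to 122270732), read 242, 241 and 249.5 CPM in siKeap1 and 60.1, 59.6 and 59.4 CPM with Fem1b depleted as well. That is a fall of 4.09-fold (log2 change -2.03 with SE 0.046, adjusted p = 1.0e-16), to under all 3 siCont libraries at 82.5, 84.0 and 83.5 CPM. Gclc, the catalytic subunit of the same enzyme, went from 183 ± 4.4 to 91.4 ± 3.0 CPM (SD, n = 3), a fall of 2.00-fold, and stayed above its siCont level of 69.1 ± 3.8. The subunits of this enzyme ended on opposite sides of siCont.

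Hmox1, the heme oxygenase, read 112, 107 and 116 CPM in siKeap1 and 35.9, 35.0 and 38.5 CPM in siFem1b/Keap1, where it fell 3.06-fold (log2 change -1.61 with SE 0.048, adjusted p = 2.6e-15). All 3 doubly depleted libraries were below siCont (49.5, 49.9 and 48.4 CPM). Nqo1, the quinone reductase used as a readout of NRF2, read 408, 411 and 383 CPM and 153, 152 and 152 CPM. It fell 2.63-fold (log2 change -1.40 with SE 0.041, adjusted p = 2.1e-15) and still stood above siCont (70.2, 74.7 and 77.2 CPM). Txnrd1, the cytosolic thioredoxin reductase, fell 1.91-fold, from 1191 ± 15.8 to 624 ± 6.3 CPM, and Srxn1, which repairs overoxidised peroxiredoxins, fell 2.51-fold. Aldh3a1, an aldehyde dehydrogenase, read 664, 665 and 645 CPM in siKeap1 and 64.7, 62.4 and 67.0 CPM in siFem1b/Keap1, near the 61.4, 61.5 and 64.1 CPM of siCont. In the plot of NRF2 target levels by library, the siKeap1 points stand highest in each panel.

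**Figure D1:**
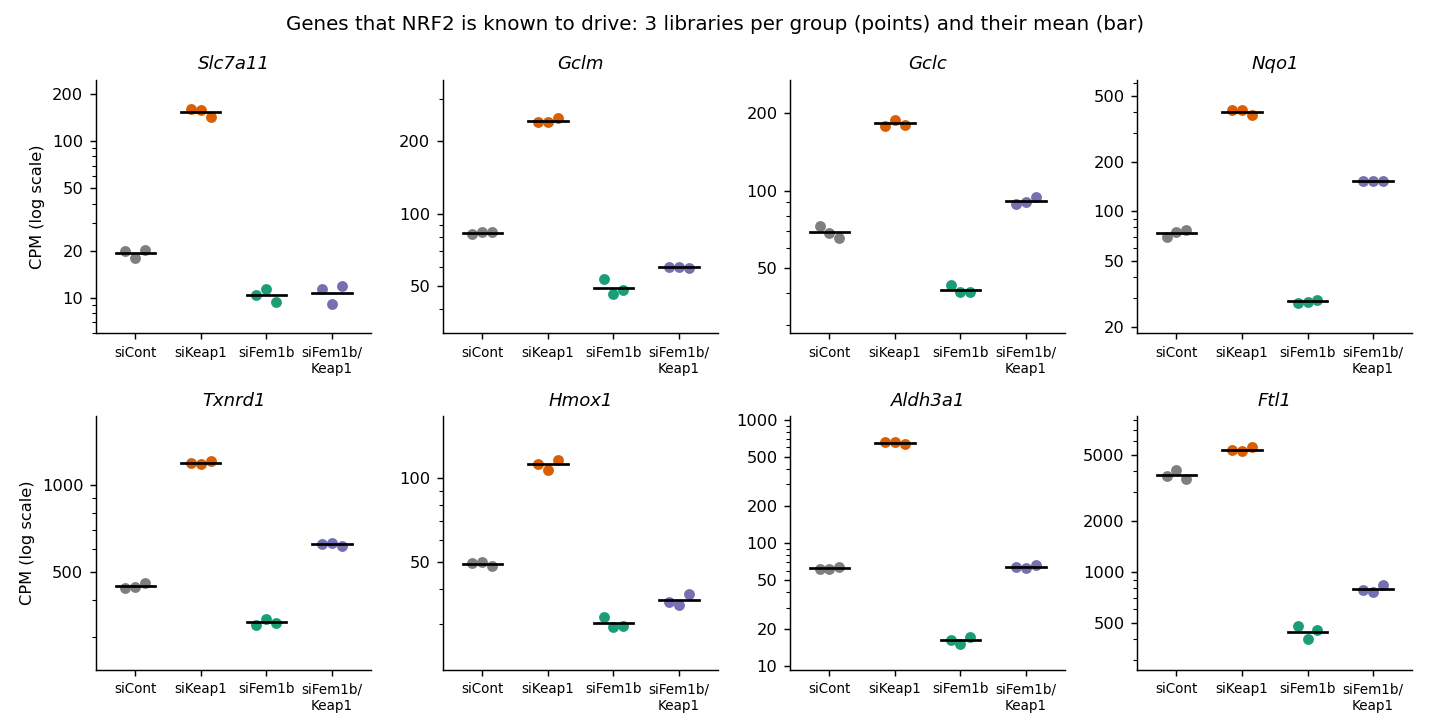
Level (CPM, log scale) of 8 genes that NRF2 is known to drive or that belong to its response, in the 3 libraries of each of the 4 groups (points) with the group mean (bar). Gclm lay at 242, 241 and 249.5 CPM in siKeap1 and at 60.1, 59.6 and 59.4 CPM in siFem1b/Keap1, below the siCont libraries.

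Among the alpha class glutathione transferases, Gsta2 fell 21.2-fold and Gsta1 11.2-fold. Gsta1 read 456, 452 and 436 CPM in siKeap1 and 42.1, 36.0 and 42.0 CPM in siFem1b/Keap1, and Gsta2 read 117, 116 and 114 and 5.97, 5.29 and 5.08 CPM. Gsta4 fell 3.54-fold, from 552 ± 6.0 to 156 ± 6.6 CPM, still above its siCont level of 102 ± 2.2. Gsta1 and Gsta2 are near-identical, and how reads were shared between them is uncertain. Ftl1, the ferritin light chain, read 5291, 5232 and 5537 CPM in siKeap1 and 783, 758 and 834 CPM in siFem1b/Keap1, far below siCont at 3700.0, 4019 and 3582. It has processed copies in the genome, so its level is uncertain too. The heavy chain Fth1 fell 1.53-fold.

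Among the factors themselves, Nfe2l2, which encodes NRF2, read 102, 98.9 and 97.6 CPM in siKeap1 and 51.4, 51.0 and 51.6 CPM in siFem1b/Keap1 and fell 1.94-fold (log2 change -0.95 with SE 0.036, adjusted p = 9.1e-14). It holds a siFem1b seed match in its 3' UTR. Nfe2l1, the related factor that acts on proteasome genes, rose 1.63-fold, from 242 ± 1.3 to 395 ± 11.2 CPM. Bach1, a repressor of Hmox1, rose 1.34-fold, and Mafg, a small MAF partner, fell 1.29-fold. Of the 9 factors listed, 3 rose and 3 fell.

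The wider antioxidant pathways moved in both directions. Of 31 tested genes of glutathione synthesis and use, 15 fell and 12 rose. Among those that rose were the microsomal transferase Mgst3, from 66.2 ± 1.1 to 130.3 ± 1.2 CPM (1.97-fold), and the theta class transferase Gstt3, from 1.69 ± 0.25 to 11.7 ± 0.99 CPM (6.87-fold). Of 20 thioredoxin and peroxiredoxin genes, 10 fell and 6 rose. Catalase (Cat) fell 1.73-fold and the peroxiredoxin Prdx6 2.75-fold, whereas Prdx5 rose 1.52-fold. Of 29 tested genes of iron and heme, 15 fell and 7 rose. The heme transporter Slc48a1 fell 2.47-fold, from 389 ± 10.4 to 158 ± 5.2 CPM, and the biliverdin reductase Blvrb 2.48-fold, from 61.5 ± 2.1 to 24.8 ± 0.32. Of 26 tested detoxification genes, 15 fell and 5 rose. Ptgr1 fell 2.11-fold and the carbonyl reductase Cbr3 2.26-fold, while the aldehyde dehydrogenase Aldh3b1 rose 3.90-fold.

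NADPH-producing enzymes fell in 14 of 23 cases and rose in 4. Pgd, of the pentose phosphate pathway, read 550.4, 541 and 559 CPM in siKeap1 and 303, 303 and 316 CPM in siFem1b/Keap1, a fall of 1.79-fold (log2 change -0.84 with SE 0.034, adjusted p = 1.8e-13). It remained above siCont at 239 ± 4.1 CPM. Of the 23 genes, 13 lay below siCont in all 3 siFem1b/Keap1 libraries and 6 above. The mitochondrial serine hydroxymethyltransferase Shmt2 read 373, 358 and 385.8 CPM in siKeap1 and 137, 133 and 144 CPM in siFem1b/Keap1, and fell 2.71-fold (log2 change -1.44 with SE 0.050, adjusted p = 2.4e-14), against 414 ± 17.7 CPM in siCont. Mthfd2 fell 2.17-fold, Mthfd1l 2.59-fold and the cytosolic Shmt1 2.72-fold. Shmt1 and Shmt2 each hold a siFem1b seed match in the 3' UTR.

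Several of those folate genes are also known targets of ATF4, the factor that answers amino acid shortage by raising amino acid carriers, tRNA synthetases and serine synthesis. Of 43 ATF4 genes listed and tested, 32 fell and 7 rose (median log2 change -0.55). Measured against siCont, 32 lay below it in all 3 siFem1b/Keap1 libraries and 5 above. Slc7a5, the leucine carrier, read 276, 264 and 262 CPM in siKeap1 and 90.5, 88.1 and 89.1 CPM in siFem1b/Keap1. It fell 3.00-fold (log2 change -1.58 with SE 0.037, adjusted p = 1.3e-16) and stood far under the 312, 315 and 324 CPM of siCont. Aldh1l2, a mitochondrial folate enzyme, read 107, 104 and 98.0 CPM in siKeap1 and 23.1, 24.0 and 22.2 CPM in siFem1b/Keap1, a fall of 4.46-fold. The glycine carrier Slc6a9 read 75.3, 76.4 and 80.3 and 26.0, 25.4 and 25.5 CPM and fell 3.02-fold, to just under the siCont libraries at 28.3, 28.4 and 26.9. Slc1a4, a carrier of alanine and serine, fell 2.63-fold, and the glycyl-tRNA synthetase Gars, singled out after its values were seen, fell 1.55-fold. Atf4 itself went from 305 ± 2.9 to 208 ± 4.8 CPM, a fall of 1.46-fold (log2 change -0.55 with SE 0.048, adjusted p = 1.0e-08).

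Most of the listed myogenic factors and sarcomere genes rose, some of them, such as Myog, from near 0 counts in Keap1-depleted cells. Of 18 tested myogenic and MEF2 factors, 13 rose and 1 fell. Myog, the factor that starts terminal differentiation (chromosome 1, 134289989 to 134292548), had 4 counts in all 3 siKeap1 libraries together and 550 in siFem1b/Keap1. The ratio is 136-fold, with an exact 95% interval of 52.6 to 499 that covers counting error only. In CPM it read 1.54, 1.85 and 1.32 in siCont and 5.22, 5.47 and 4.21 in siFem1b/Keap1, against 57.2, 58.4 and 62.2 in cells given siFem1b alone. Myf5, a factor of proliferating myoblasts, read 30.7, 28.3 and 31.7 CPM in siKeap1 and 75.1, 75.0 and 74.0 CPM in siFem1b/Keap1, and rose 2.47-fold (log2 change 1.30 with SE 0.051, adjusted p = 1.4e-13). Mef2c rose 2.18-fold and Eya1 1.68-fold. Mymk, the myomaker protein of cell fusion, rose 6.11-fold, from 1.09 ± 0.099 to 6.66 ± 0.46 CPM. Myod1, the determination factor, read 64.4, 58.0 and 65.9 CPM and 63.3, 67.2 and 67.0 CPM, with overlapping groups (log2 fold change 0.07, adjusted p = 0.25). It passed the threshold with library totals alone as the scale.

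**Figure D2:**
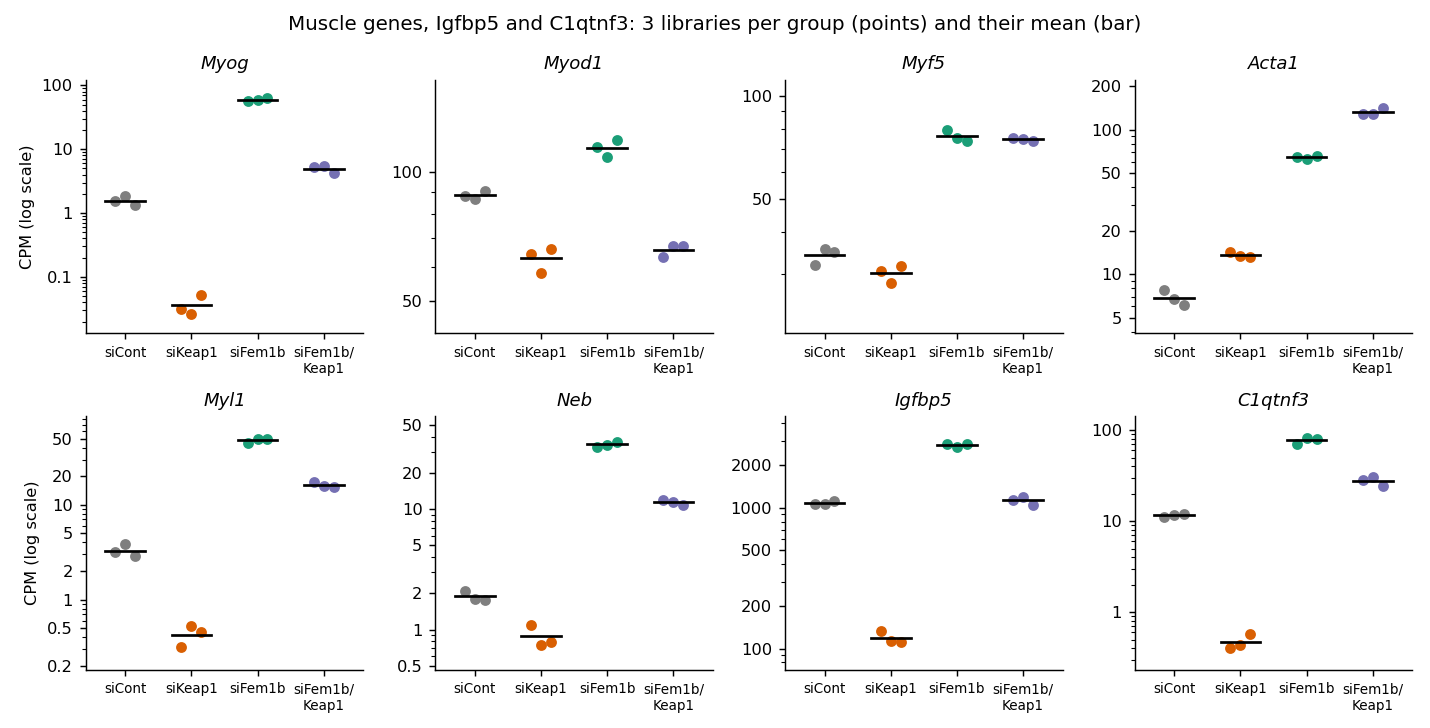
Level (CPM, log scale) of 6 muscle genes, of Igfbp5 and of C1qtnf3 in the 3 libraries of each of the 4 groups (points) with the group mean (bar). Myl1 lay at 0.312, 0.519 and 0.449 CPM in siKeap1, at 17.6, 15.8 and 15.5 CPM in siFem1b/Keap1 and at 44.6, 48.9 and 49.8 CPM in siFem1b, while Myod1 overlapped between siKeap1 and siFem1b/Keap1.

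Of 50 tested sarcomere and excitation-contraction genes among 58 listed, 36 rose and 4 fell, with a median log2 change of 1.55. Their summed level, led by tropomyosins and Des, was 2491 to 2533 CPM in siCont, 2628 to 2856 in siKeap1 and 3036 to 3200.3 in siFem1b/Keap1. The filter lets in genes that are high in any 1 group, so members kept only by the Fem1b-depleted libraries enter through the change itself. Acta1, skeletal alpha actin (chromosome 8, 123891769 to 123894751), read 14.2, 13.3 and 13.2 CPM in siKeap1 and 127, 129 and 142 CPM in siFem1b/Keap1. It rose 9.80-fold (log2 change 3.29 with SE 0.063, adjusted p = 1.0e-17) and was above the 64.5, 62.9 and 65.9 CPM of siFem1b. Neb, the giant thin-filament ruler nebulin, read 1.09, 0.753 and 0.792 CPM and 12, 11.4 and 10.8 CPM, a rise of 13.1-fold, and here siFem1b stood higher at 33.1, 33.9 and 36.4 CPM. Klhl41, which stabilises nebulin, rose 16.2-fold, and the M-band protein Myom3 29.5-fold. Klhl41 and Myom3 averaged under 5 CPM over the compared libraries, so these folds start from a low level. Tnnt1, slow troponin T, went from 8 counts in the siKeap1 libraries together to 436, a ratio of 53.7 (exact 95% interval 27.0 to 125, counting error only). Cardiac troponin T, Tnnt2, singled out after its values were seen, fell 1.83-fold, from 106 ± 9.4 to 57.8 ± 6.6 CPM.

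At the neuromuscular junction, 9 of 11 tested genes rose and none fell by the test. The agrin receptor Lrp4 read 20.1, 19.97 and 19.04 CPM in siKeap1 and 54.7, 54.8 and 53.3 CPM in siFem1b/Keap1, a rise of 2.75-fold (log2 change 1.46 with SE 0.050, adjusted p = 1.9e-14). Its partner kinase Musk rose 1.80-fold, the clustering protein Rapsn 2.40-fold, and the receptor subunits Chrng and Chrnd 11.7-fold and 1.40-fold. Chrng averaged under 5 CPM over the compared libraries. Of 27 tested genes of myoblast identity and satellite cells, 19 rose and 4 fell. The chemokine receptor Cxcr4 rose 8.00-fold, from 2.70 ± 0.18 to 21.5 ± 1.4 CPM. Notch3 rose 1.76-fold, and the Notch-driven repressors Hey1 and Heyl rose 4.84-fold and 7.86-fold.

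The insulin-like growth factor system, which promotes myoblast growth and differentiation, changed member by member. Igfbp5, a binding protein of differentiating muscle (chromosome 1, 72857932 to 72874884), read 1073, 1073 and 1116 CPM in siCont, 134, 113 and 111 CPM in siKeap1 and 1134, 1203 and 1048 CPM in siFem1b/Keap1. It rose 9.45-fold (log2 change 3.24 with SE 0.067, adjusted p = 6.1e-16) and the doubly depleted libraries overlapped those of siCont. Igf2, the ligand, had 2 counts in siKeap1 and 293 in siFem1b/Keap1, a ratio of 144 with an exact 95% interval of 39.6 to 1198 for counting error. Igf2r, the scavenging receptor of IGF2, rose 2.22-fold, Igfbp3 rose 1.52-fold, and Igfbp2 fell 2.45-fold. Of 10 tested imprinted growth genes, 6 rose and 2 fell. Peg3 rose 2.99-fold, from 226 ± 4.8 to 674 ± 12.9 CPM, while Mest fell 2.06-fold, to 9.13 ± 0.62 CPM from 18.8 ± 0.37.

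Genes of cell division fell almost throughout. In DNA replication 40 of 42 genes fell and 1 rose, and in mitosis 37 of 38 fell and 1 rose. The median log2 changes were -0.54 and -0.60. Mcm5, of the replicative helicase, read 219, 217 and 214 CPM in siKeap1 and 124, 121 and 123 CPM in siFem1b/Keap1, a fall of 1.77-fold (log2 change -0.82 with SE 0.036, adjusted p = 6.5e-13). The kinesin Kif20a, which acts in cytokinesis, read 226, 223 and 215 CPM and 83.9, 79.3 and 81.6 CPM and fell 2.71-fold. Uhrf1, which carries DNA methylation through replication, fell 1.80-fold, the spindle factor Tpx2 1.82-fold and the centromeric histone Cenpa 1.88-fold. The exceptions were the phosphatase Cdc25b, which rose 1.22-fold among the mitotic genes, and E2f2, which rose 1.08-fold among those of replication. The call of E2f2 was lost in most alternative settings, among them either run alone, DESeq2, its size factors, the replicate block and the length offset. All 38 mitotic genes and 41 of the 42 replication genes were below siCont in all 3 siFem1b/Keap1 libraries.

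In a list of cyclin-dependent kinase inhibitors, D cyclins and their partners 9 of 13 genes rose and 3 fell. Cdkn1a, the p21 inhibitor, read 205, 205 and 213 CPM in siKeap1 and 323, 339 and 339.6 CPM in siFem1b/Keap1, and rose 1.61-fold (log2 change 0.69 with SE 0.036, adjusted p = 7.8e-12). Cdkn1b, or p27, rose 1.54-fold and the D cyclin Ccnd3, kept by differentiating muscle, 1.55-fold, whereas Ccnd1 fell 1.56-fold. Genes known as p53 targets did not share a direction, with 13 of 28 higher and 10 lower. Btg2 rose 5.13-fold, from 16.1 ± 1.9 to 82.4 ± 2.1 CPM, and Pmaip1 rose 2.41-fold. Gdf15 fell 3.06-fold, from 115 ± 3.4 to 37.5 ± 1.7 CPM, and Ccng1 fell 1.84-fold.

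Genes of the interferon response rose in 28 of 35 tested cases, of 41 listed, and none fell by the test. With a filter of 5 CPM in 3 libraries 16 of 18 rose. Genes high only in Fem1b-depleted libraries can pass either filter, and so enter through the change itself. The median log2 change of the 35 was 1.21. Stat2, a subunit of the factor that drives these genes (chromosome 10, 128270559 to 128292849), read 18.99, 18.1 and 19.2 CPM in siKeap1 and 37.1, 39.1 and 40.0 CPM in siFem1b/Keap1, a rise of 2.07-fold (log2 change 1.05 with SE 0.051, adjusted p = 2.5e-12). Irf7, its amplifier, read 0.593, 0.390 and 0.343 CPM and 3.31, 3.52 and 3.88 CPM and rose 8.14-fold. The RNA sensor Ddx58 rose 2.59-fold, Ifi27 3.24-fold and Parp9 3.39-fold. Stat2 holds a siFem1b seed match and rose all the same. Of 18 tested genes of class I antigen presentation, 14 rose and 1 fell. Tapbp, which loads peptides, read 97.0, 100.5 and 104 CPM and 236, 241 and 250.5 CPM (2.41-fold). H2-K1 rose 2.62-fold, H2-T23 2.85-fold and the class I transactivator Nlrc5 1.502-fold. The H2 genes are close copies of each other, and their separate levels are uncertain.

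Secreted signals did not share that direction, with 11 of 18 tested chemokines and cytokines lower and 7 higher. Spp1, osteopontin, fell 2.45-fold, from 1818 ± 22.5 to 743 ± 6.6 CPM. The chemokine Ccl7 fell 2.24-fold, the macrophage growth factor Csf1 1.62-fold and Tgfb2 2.35-fold, while Tgfb3 rose 1.91-fold. Spp1, Ccl7 and Tgfb3 hold siFem1b seed matches in their 3' UTRs.

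Lysosomal genes rose in 37 of 45 tested cases and fell in 3, with a median log2 change of 0.42. Neu1, the lysosomal sialidase (chromosome 17, 34931253 to 34935953), read 18.2, 17.7 and 18.7 CPM in siKeap1 and 54.7, 57.2 and 60.5 CPM in siFem1b/Keap1, a rise of 3.15-fold (log2 change 1.66 with SE 0.053, adjusted p = 7.1e-15). Gpnmb read 1.56, 1.90 and 1.58 CPM and 27.9, 28.6 and 27.9 CPM. Tpp1, a peptidase, rose 1.93-fold, and the proton pump subunits Atp6v0d1 and Atp6v0a1 rose 1.95-fold and 1.89-fold. Ppt1, a thioesterase singled out after its values were seen, fell 1.72-fold. Of 18 autophagy receptors and ATG8 proteins, 13 rose and 3 fell. Gabarap rose 2.11-fold and Calcoco1 2.18-fold, while Sqstm1, which is also an NRF2 target, fell 1.57-fold.

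The factors known to drive lysosomal genes, and the folliculin complex that restrains them, gave a mixed count, 9 higher and 8 lower of 20. Flcn read 33.7, 32.0 and 33.1 CPM in siKeap1 and 53.9, 57.8 and 57.0 CPM in siFem1b/Keap1, and rose 1.71-fold (log2 change 0.77 with SE 0.045, adjusted p = 3.3e-11). Its substrates Rragd and Rragc, the GTPases that recruit TFE factors to lysosomes, rose 2.70-fold and 1.49-fold. Fnip1 read 55.1, 59.1 and 53.5 CPM and 65.5, 72.4 and 60.9 CPM (1.19-fold higher), and Fnip2 fell 1.33-fold. Among the TFE factors, Tfeb rose 1.17-fold, Tfe3 fell 1.14-fold and Mitf fell 1.24-fold. Ppargc1a, a coactivator of mitochondrial genes, went from 0.995 ± 0.29 to 1.82 ± 0.42 CPM (1.80-fold, adjusted p = 0.0075). With the first sequencing run alone, Tfeb and Ppargc1a no longer passed the threshold.

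**Figure D3:**
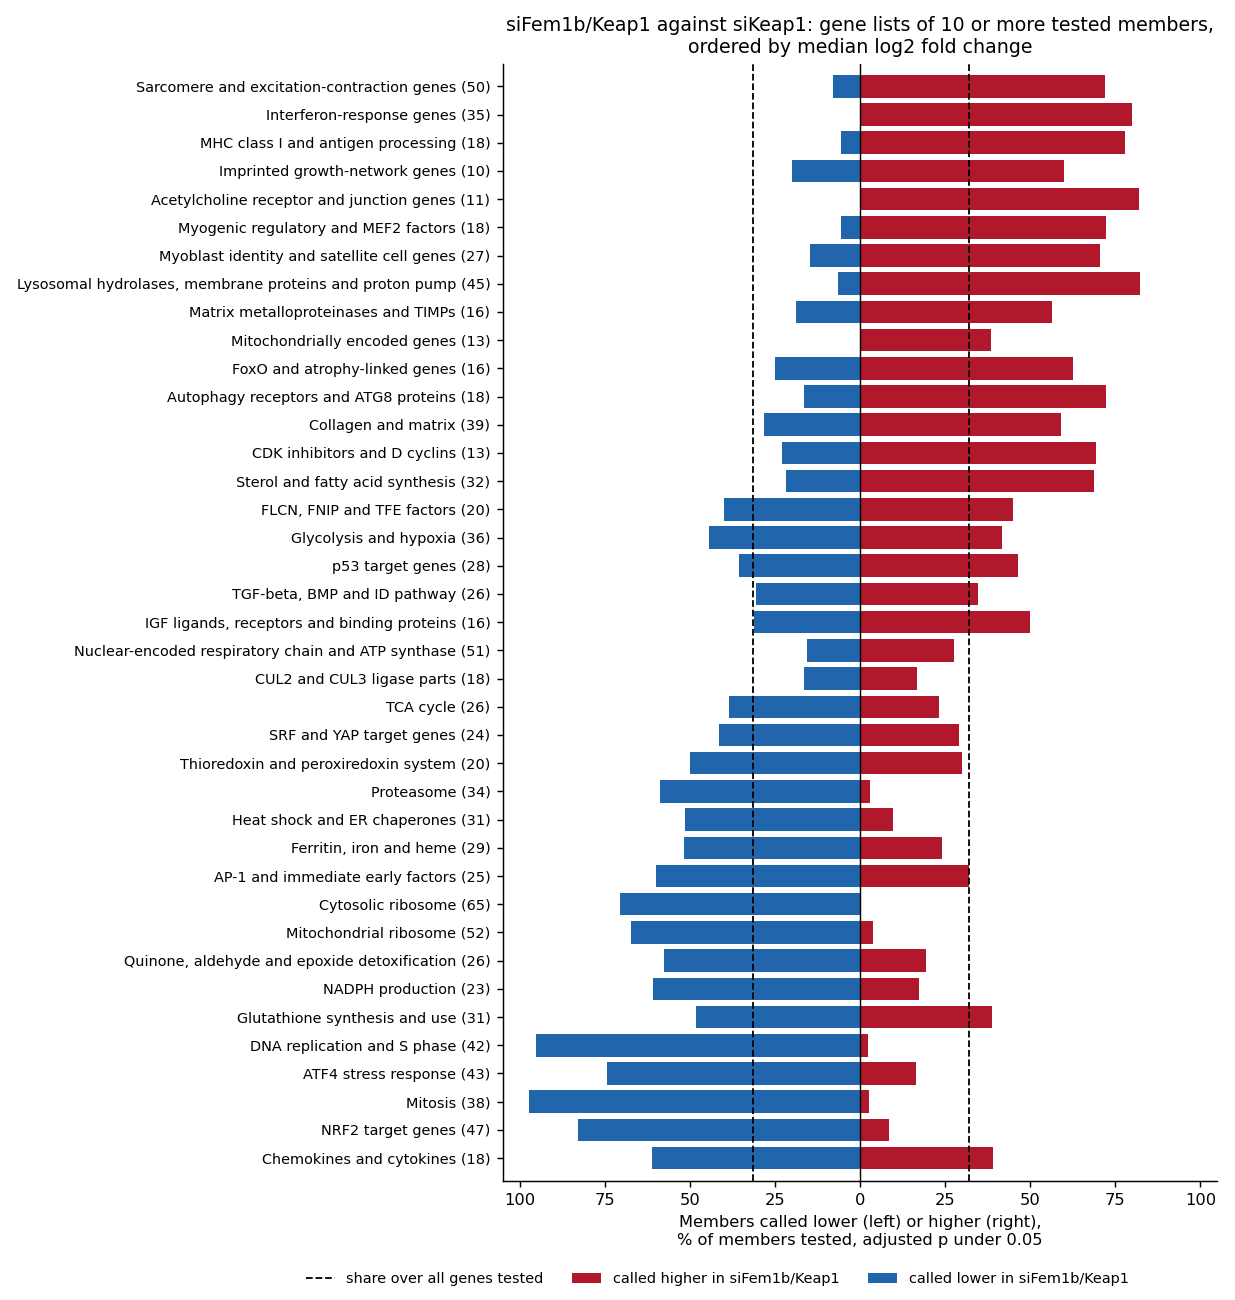
Share of the tested members of each list (number in brackets, lists of 10 or more) that were higher (right) or lower (left) in siFem1b/Keap1 than in siKeap1 at an adjusted p under 0.05. The dashed lines mark the shares over all genes tested, 31.5% lower and 32.0% higher, and mitosis, with 37 of 38 lower, reaches furthest to the left.

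In lipid synthesis 22 of 32 sterol and fatty acid genes rose and 7 fell. Hmgcs1, of the mevalonate pathway, rose 1.82-fold, and Srebf2, its regulator, 1.37-fold, whereas the elongase Elovl6 fell 1.81-fold. Acss2, the acetyl-CoA synthetase of the cytosol, read 42.1, 44.3 and 41.0 CPM in siKeap1 and 18, 19.9 and 18.1 CPM in siFem1b/Keap1, a fall of 2.27-fold. Glycolysis and hypoxia genes parted evenly, 15 higher and 16 lower of 36. The glucose carrier Slc2a1 fell 1.77-fold and Vegfa 2.05-fold, while Aldoc rose 5.16-fold. Pyruvate carboxylase, Pcx, read 49.2, 51.2 and 48.0 CPM in siKeap1 and 21.6, 22.0 and 21.4 CPM in siFem1b/Keap1, a fall of 2.28-fold. In its list of the citric acid cycle 10 of 26 fell and 6 rose, Sdhd by 1.90-fold downward.

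Genes of the mitochondrial ribosome fell in most cases, while those that the mitochondrion encodes were mostly not called. Of the 13 mitochondrially encoded genes, 5 rose and none fell by the test. The gene mt-Nd5 read 985, 993 and 949.7 CPM in siKeap1 and 1421, 1505 and 1193 CPM in siFem1b/Keap1 (1.41-fold), and mt-Co1 rose 1.32-fold. Nuclear genes of the respiratory chain rose in 14 and fell in 8 of 51 cases, below the shares over all genes in both directions. With library totals alone as the scale 24 of them rose and 4 fell. Without replicate 3 of siFem1b/Keap1 7 rose, and without its replicate 1 9 rose. Genes of the mitochondrial ribosome fell in 35 of 52 cases and rose in 2, Mrpl12 by 1.47-fold downward. Of 65 cytosolic ribosomal genes 46 fell and none rose, with small changes such as 1.27-fold for Rps6. With library totals alone as the scale 21 of them fell and 1 rose. Proteasome genes fell in 20 of 34 cases and rose in 1, and with library totals 13 fell and 4 rose. Psma5 fell 1.71-fold and Psmd11 1.66-fold. Of 31 chaperones 16 fell and 3 rose, with Hspd1 down 1.75-fold and Hsp90aa1 down 1.48-fold.

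Matrix genes rose in 23 of 39 tested cases and fell in 11. The laminin chain Lama2, a basement membrane protein of muscle, read 28.8, 26.1 and 28.5 CPM in siKeap1 and 102, 102 and 110.3 CPM in siFem1b/Keap1 and rose 3.78-fold (log2 change 1.92 with SE 0.050, adjusted p = 6.1e-16). Col3a1 rose 2.57-fold, from 988 ± 37.2 to 2541 ± 33.0 CPM, and Col5a3 1.91-fold. Tenascin C, Tnc, fell 3.06-fold, the crosslinking enzyme Loxl2 2.60-fold and nidogen, Nid1, 1.97-fold. Of 16 tested metalloproteinases and their inhibitors 9 rose and 3 fell. Mmp15 read 2.40, 2.10 and 2.32 CPM in siKeap1 and 38.4, 42.2 and 43.2 CPM in siFem1b/Keap1, while Mmp10 fell 2.20-fold and the inhibitor Timp3 1.99-fold. Summed fibroblast markers, among them collagens that this line also makes, read 2111 to 2199 CPM in siKeap1 and 4182 to 4287 CPM in siFem1b/Keap1, with 6 of 10 tested higher and none lower by the test. Whether the number of such cells moved with the matrix genes was not tested.

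Targets of the growth-linked factors SRF and YAP were lower in 10 and higher in 7 of 24 cases. Ccn2, a secreted YAP target, read 209.5, 198 and 244 CPM in siKeap1 and 51.2, 48.0 and 54.7 CPM in siFem1b/Keap1, a fall of 4.23-fold (log2 change -2.08 with SE 0.069, adjusted p = 5.0e-13). In the list of the TGF-beta pathway 9 of 26 rose and 8 fell. Immediate early factors fell in 15 of 25 cases and rose in 8. Myc fell 2.29-fold and Atf3 2.22-fold, and Spry2, a brake on receptor tyrosine kinases, rose 2.14-fold. Genes linked to FoxO and muscle wasting rose in 10 of 16 cases and fell in 4, Ccng2 rising 3.47-fold. The proliferins, prolactin-like hormones that growing myoblasts secrete, fell in 3 of 3 tested cases. Prl2c2 read 1224, 1244 and 1156 CPM in siKeap1 and 215, 199 and 207 CPM in siFem1b/Keap1, and Prl2c3 fell 3.45-fold. These genes are near-identical, so their separate values are uncertain. The metallothioneins Mt1 and Mt2 did not pass the test (log2 fold changes 0.03 and 0.13), and the zinc importer Slc39a10 of their list fell 1.88-fold.

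Some epithelial genes changed, although the line is not epithelial. Of 14 tested markers among 19 listed, 8 rose and 3 fell, and with a filter of 5 CPM in 3 libraries 3 of 4 rose and 1 fell. Markers high only in Fem1b-depleted libraries can pass either filter. The sum of the listed markers read 186 to 193 CPM in siKeap1 and 284 to 303 in siFem1b/Keap1. Krt19 rose 2.86-fold, from 40.5 ± 1.7 to 116 ± 8.1 CPM, and Ocln 3.74-fold. Cdh1, E-cadherin, had 23 counts in siKeap1 and 440 in siFem1b/Keap1 (18.7-fold by the fit), while Epcam had 0 and 5. Krt14, which siKeap1 holds at 62.4 ± 2.4 CPM against 9.70 ± 0.88 in siCont, fell 1.95-fold, and Krt16 read 13.8, 15.1 and 14.3 CPM in siKeap1 and 1.51, 1.61 and 1.29 CPM in siFem1b/Keap1. Adipocyte markers summed to 57.9 to 60.9 and 81.3 to 86.1 CPM, with 3 of 4 tested higher, among them Lpl at 1.99-fold. Bone and cartilage markers summed to 213 to 217 and 181 to 187 CPM. Neuronal markers summed to 724 to 737 and 683 to 703 CPM, with Map2 up 2.35-fold.

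The same siRNA was also given to cells with Keap1 intact, and that comparison (siFem1b against siCont) uses other libraries. It called 9047 genes (62.0%), 4373 higher (30.0%) and 4674 lower (32.0%). The calls coincided for 7548 genes, 7412 in the same direction and 136 in opposite ones. The shared calls of one direction were 80.0% of those in Keap1-depleted cells and 81.9% of those in cells with Keap1. Across the 14584 genes the log2 changes correlated with a Pearson r of 0.83 and a Spearman rho of 0.81, as a description, since genes are not independent replicates. The difference between the changes, which is the interaction of the design, passed an adjusted p of 0.05 for 1665 genes (11.4%), 890 more positive (6.10%) and 775 more negative (5.31%) in Keap1-depleted cells. With an offset for transcript length 837 passed. The balance of directions depended on the setting, with 306 more positive and 623 more negative in the first sequencing run alone, and 527 and 918 in the second. Of the 1665, 608 changed in the same direction and further in Keap1-depleted cells, 302 in the same direction and less far, and 136 in opposite directions. Another 342 passed only in Keap1-depleted cells and 277 only in cells with Keap1.

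**Figure D4:**
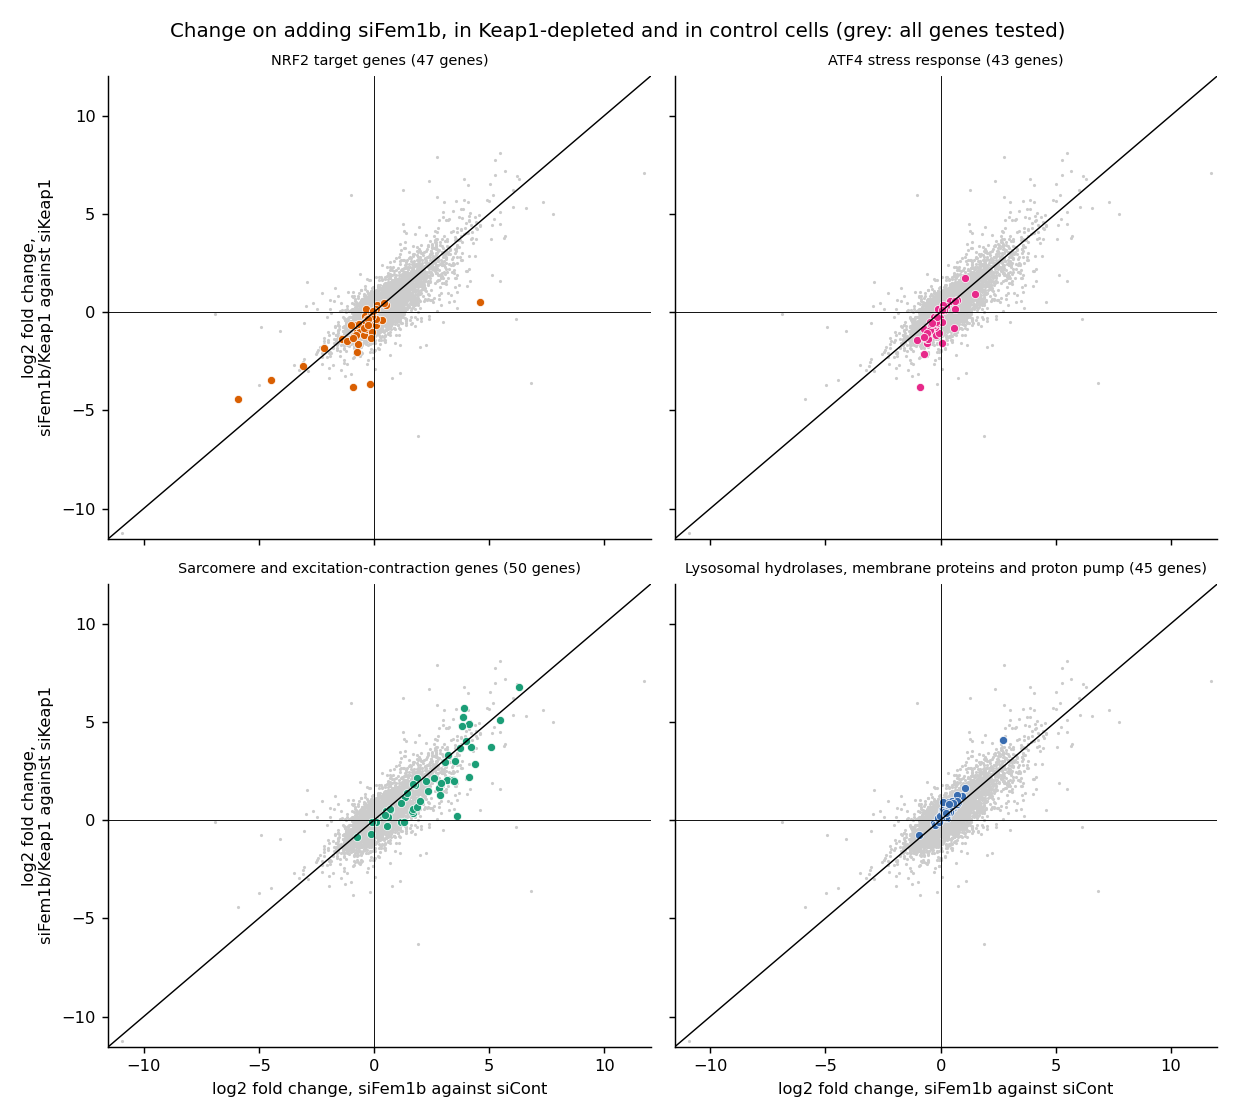
Log2 fold change on adding siFem1b in Keap1-depleted cells (vertical) and in control cells (horizontal) for all 14584 genes (grey) and for the members of 4 lists (colour), with the line of equal change. ATF4 genes lie mostly under the line, with 24 of 43 called more negative in Keap1-depleted cells, and lysosomal genes mostly above it, with 23 of 45 called more positive.

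Of 47 NRF2 target genes, 24 had a more negative change in Keap1-depleted cells by this test and 6 a more positive one. In cells with Keap1, 30 fell and 4 rose. The difference in log2 change was -2.93 (adjusted p = 3.7e-10) for Slc7a11, which fell 1.87-fold in cells with Keap1 and 14.3-fold in Keap1-depleted cells. It was -1.27 (adjusted p = 2.8e-10) for Gclm, -0.91 (adjusted p = 4.8e-08) for Hmox1 and -1.40 (adjusted p = 8.8e-11) for Aldh3a1. For Gclc, Txnrd1 and Srxn1 the differences were smaller, at -0.25, -0.52 and -0.35. Nqo1 fell 2.60-fold in cells with Keap1, and no difference was detected (-0.02, adjusted p = 0.91). Gsta1 and Gsta2 differed the other way, by 0.97 and 1.5, as they had fallen further in cells with Keap1, to 1.65 ± 0.070 and 0.122 ± 0.010 CPM. Ftl1 differed by 0.33 (adjusted p = 0.014). Adh7, an alcohol dehydrogenase, fell 4.55-fold in Keap1-depleted and 1.56-fold in control cells, to the same level of 23.2 ± 1.4 and 23.1 ± 1.2 CPM, a difference of -1.54 (adjusted p = 8.8e-11). Blvrb fell in Keap1-depleted cells and did not pass the test in the others (difference -1.19, adjusted p = 7.6e-07).

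The ATF4 list had 24 of 43 genes with a more negative change in Keap1-depleted cells and 0 with a more positive one. In cells with Keap1 27 of them fell and 9 rose. Slc6a9 had the smallest p-value of the test among genes of at least 5 CPM. It read 28.3, 28.4 and 26.9 CPM in siCont and 29.0, 28.8 and 28.7 CPM in siFem1b (log2 fold change 0.05, adjusted p = 0.36), against 75.3, 76.4 and 80.3 and 26.0, 25.4 and 25.5 CPM in the Keap1-depleted groups, so the difference was -1.64 (adjusted p = 1.2e-11). Aldh1l2 differed by -1.44 (adjusted p = 4.4e-10) and Slc7a5 by -0.98 (adjusted p = 3.1e-10), neither of which siKeap1 alone had raised above siCont. Slc3a2, Shmt2 and Mthfd2 differed by -0.75, -0.43 and -0.55. For Atf4 the difference did not pass the test (-0.20, adjusted p = 0.074). Among metabolic genes, Acss2 rose 1.61-fold in cells with Keap1 and fell in Keap1-depleted cells, a difference of -1.88 (adjusted p = 9.4e-11). Pcx differed by -1.16 (adjusted p = 7.8e-08). Ass1, argininosuccinate synthase, rose 3.67-fold in cells with Keap1 and 1.43-fold in Keap1-depleted cells, to 147 ± 3.9 and 149 ± 4.3 CPM. Its difference was -1.36 (adjusted p = 3.4e-10).

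Muscle genes reached other end levels in the 2 backgrounds. Of the 50 sarcomere genes 44 rose in cells with Keap1, 16 had a more negative change in Keap1-depleted cells by the test of the difference and 2 a more positive one. Myog read 57.2, 58.4 and 62.2 CPM in siFem1b and 5.22, 5.47 and 4.21 CPM in siFem1b/Keap1, although its fold change was larger from the lower start (difference 1.70, adjusted p = 0.039). Myl1 and C1qtnf3 showed the same order, at 47.8 ± 2.8 and 16.3 ± 1.1 CPM and at 77.4 ± 6.2 and 27.9 ± 2.9 CPM, with differences of 1.35 (adjusted p = 3.2e-04) and 3.12 (adjusted p = 7.5e-09). Myod1 rose 1.29-fold in cells with Keap1, a difference of -0.30 (adjusted p = 0.008). Acta1 rose by a similar factor in both, and the difference was not detectable (0.07, adjusted p = 0.73). Igfbp5 rose 2.56-fold in cells with Keap1, to 2790.0 ± 83.3 CPM, and 9.45-fold in Keap1-depleted cells, to 1128 ± 77.5. Its difference was 1.88 (adjusted p = 4.4e-10). Chrnd fell 1.15-fold in cells with Keap1 and rose in Keap1-depleted cells, a difference of 0.69 (adjusted p = 3.6e-06). Mest did likewise in reverse, rising 1.36-fold in cells with Keap1 and falling in Keap1-depleted cells (-1.49, adjusted p = 2.0e-08).

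Of 45 lysosomal genes, 23 had a more positive change in Keap1-depleted cells and 1 a more negative one. Neu1 rose 2.09-fold in cells with Keap1 (difference 0.60, adjusted p = 2.4e-05), Tpp1 1.39-fold (0.47, adjusted p = 9.8e-06) and Gpnmb 6.57-fold (1.34, adjusted p = 1.5e-06). Gpr137b, a lysosomal membrane protein outside this list, fell 1.48-fold in cells with Keap1, from 164, 161 and 158 to 109, 112 and 104.7 CPM. In Keap1-depleted cells it rose 1.44-fold, from 144, 140.4 and 141 to 201, 205 and 202 CPM, a difference of 1.09 (adjusted p = 8.8e-11). For Flcn no difference was detected (0.18, adjusted p = 0.087). Of the 35 interferon genes 5 had a more positive change in Keap1-depleted cells and none a more negative one by the test, Stat2 by 0.58 (adjusted p = 2.2e-05). In mitosis 13 of 38 had a more negative change and none a more positive one by the test. In glycolysis and hypoxia 11 of 36 had a more positive change and 1 a more negative one. The keratins Krt14 and Krt16 differed by -1.37 (adjusted p = 1.9e-08) and -2.04 (adjusted p = 6.1e-05). Fem1b was depleted alike, and its difference did not pass the test (-0.13, adjusted p = 0.39).

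Since every siFem1b library differs from its control by the same sequence, genes were also read by whether their 3' UTR holds the 7 bases CAGAATT, the DNA form of the capitals above. Of 1661 genes with such a match, 45.8% were lower and 21.6% higher in siFem1b/Keap1 than in siKeap1, with a median log2 change of -0.16. Of 11454 without, 30.9% were lower and 35.4% higher, and the median was 0.03. The same order held within each class of 3' UTR length. Lower genes made up 64.4% with a match and 32.8% without in the shortest class, 53.5% and 31.0% in the middle class, and 41.8% and 28.0% in the longest. The siKeap1 seed, which both groups received, gave 33.0% lower of 327 genes with a match and 32.7% without over all lengths. Its classes differed in both directions, with 37.1% of 35 genes and 33.4% without in the shortest, 17.7% of 79 and 33.4% in the middle, and 38.0% of 213 and 31.4% in the longest. For the siCont seed the shares were 32.7% and 32.8% over all lengths. In cells with Keap1 44.2% of genes with a siFem1b match were lower and 31.7% of those without. These shares are a description, and whether the guide acted on any 1 transcript was not tested.

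**Figure D5:**
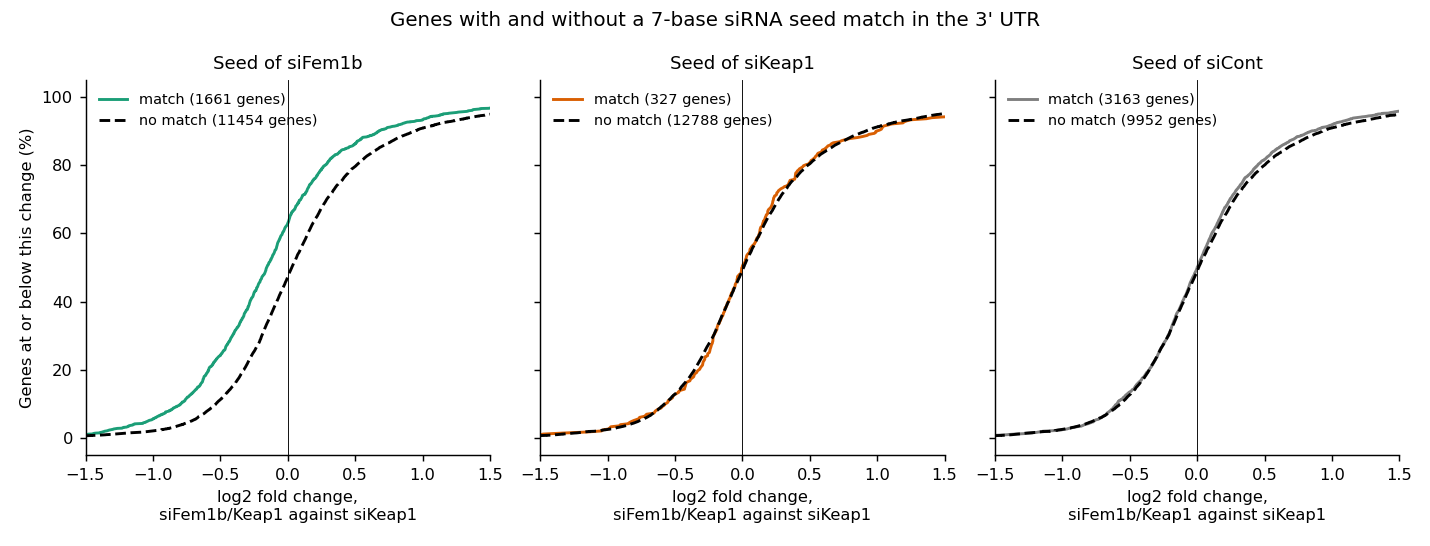
Cumulative share of genes (%, vertical) against the log2 fold change of siFem1b/Keap1 against siKeap1 (horizontal, drawn from -1.5 to 1.5), for genes with a seed match in the 3' UTR (solid) and without (dashed), 1 panel per siRNA. The curve of genes with a siFem1b match lies to the left, with a median of -0.16 against 0.03, whereas the curves for the siKeap1 and siCont seeds lie close together.

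Among named genes searched, 32 of 171 hold a siFem1b match in the 3' UTR, 22 of them lower and 10 higher. Over all genes searched, 1661 of 13115 hold a match, 761 of them called lower and 358 higher. The named genes were mostly chosen by the size or p-value of their change, so their split describes that choice. Those lower include Nfe2l2, Srxn1, Cat, Adh7, Shmt2, Shmt1, Slc1a4, Mitf, Fnip2, Mest, Uhrf1, Kif20a, Cenpa, Spp1 and Ccl7. Also lower are Sqstm1, Slc2a1, Sdhd and Psmd11, and Elovl6, Timp3 and Ppt1 with 2 matches each. Those higher are E2f2, Igf2, Igf2r, Mef2c, Chrnd, Rragd, Stat2, Pmaip1, Tgfb3 and Fndc1. In the main fit, counts without genes that hold a match were 33 lower and 4 higher of 40 NRF2 targets, and 29 lower and 6 higher of 38 ATF4 genes. They were 31 higher and 4 lower of 44 sarcomere genes, 36 higher and none lower of 41 lysosomal genes, 25 higher of 31 interferon genes, and 33 lower of 34 mitotic genes. When the fit was repeated without genes that hold a match, 1 of 41 lysosomal genes and 1 of 33 interferon genes were called lower. Ppt1 was among the lysosomal genes with a match. The directions of these groups did not change when genes with a match were left out. That step keeps genes with a match outside the 3' UTR only, such as Slc7a11 and Ftl1. It also keeps the listed targets of a factor whose own transcript holds a match, such as Nfe2l2. The part of the seed in these group changes was not tested.

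Promoters of the groups that moved were searched on both strands for the short motif of the factor each group is known for, in the 250 bases before and 50 after the start in the RefSeq table (GRCm38.p6). The antioxidant response element TGACNNNGC, bound by NRF2 with small MAF proteins, was in 10 of 39 NRF2 target promoters (25.6%) and in 14.2% of the 10825 promoters of tested genes. The interferon-stimulated element GAAANNGAA was in 16 of 27 promoters of its group (59.3%) and 7.15% of all tested. The TFE-type element TCACGTG was in 12 of 35 lysosomal promoters (34.3%) and 5.78% of those tested. TGATGNAAT, bound by ATF4 with C/EBP factors, was in 5 of 36 ATF4 gene promoters (13.9%) and 0.499% of those tested. The E-box CAGCTG of myogenic factors was in 18 of 38 sarcomere promoters (47.4%) and 15.1%, and the E2F sites TTTGGCGC or TTTCCCGC in 13 of 33 replication promoters (39.4%) and 2.89%. The TFE-type element overlaps itself on the opposite strand where it reads TCACGTGA. The lists were drawn up from genes known to respond to these factors, so the shares describe the lists.

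Read over all tested promoters, 40.6% of 1637 genes with the E-box were higher in siFem1b/Keap1, against 31.8% of those without. With an E2F site 51.8% of 313 genes were lower, against 32.4% without. For the antioxidant element the lower shares were 34.2% with and 32.7% without, and for the interferon element the higher shares were 31.3% and 33.3%. The TFE-type element gave 33.7% higher with and 33.1% without. Of the 54 genes with the ATF4 motif 29.6% were lower, against 33.0% without. A match is a run of letters in this window and does not show that a factor binds there.

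The promoters of 4 genes are shown as examples of members that moved together with their groups, each with its match in capitals and the rest in lower case. They are Gclm for the NRF2 targets (chr3:122245307-122245606, plus strand, match from base -134 before the start) and Gars for the ATF4 genes (chr6:55037751-55038050, plus strand, from -31). Stat2 stands for the interferon genes (chr10:128270248-128270547, plus strand, from -221) and Acta1 for the sarcomere (chr8:123894726-123895025, minus strand, from -221).
Gclm: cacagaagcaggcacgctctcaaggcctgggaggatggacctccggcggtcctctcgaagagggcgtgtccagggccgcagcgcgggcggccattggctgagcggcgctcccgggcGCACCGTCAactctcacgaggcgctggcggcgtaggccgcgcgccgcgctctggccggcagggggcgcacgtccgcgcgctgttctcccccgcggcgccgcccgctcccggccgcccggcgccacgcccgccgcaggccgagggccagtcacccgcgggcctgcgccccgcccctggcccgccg
Gars: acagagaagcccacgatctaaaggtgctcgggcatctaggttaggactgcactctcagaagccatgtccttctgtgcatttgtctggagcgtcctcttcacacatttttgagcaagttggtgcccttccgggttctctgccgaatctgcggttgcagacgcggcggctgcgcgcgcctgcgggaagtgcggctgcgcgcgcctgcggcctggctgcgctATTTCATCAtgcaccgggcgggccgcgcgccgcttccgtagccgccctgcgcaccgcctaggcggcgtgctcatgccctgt
Stat2: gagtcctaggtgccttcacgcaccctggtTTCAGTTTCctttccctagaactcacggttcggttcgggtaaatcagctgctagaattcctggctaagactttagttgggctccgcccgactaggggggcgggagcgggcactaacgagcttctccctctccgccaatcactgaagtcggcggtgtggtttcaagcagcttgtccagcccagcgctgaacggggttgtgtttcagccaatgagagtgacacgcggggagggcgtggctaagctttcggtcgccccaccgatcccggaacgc
Acta1: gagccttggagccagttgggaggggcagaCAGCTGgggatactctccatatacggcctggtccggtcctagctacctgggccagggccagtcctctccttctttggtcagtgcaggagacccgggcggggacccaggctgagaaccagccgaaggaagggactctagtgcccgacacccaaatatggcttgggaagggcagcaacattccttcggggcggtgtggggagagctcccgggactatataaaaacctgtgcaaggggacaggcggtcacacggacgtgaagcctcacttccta
With these promoters, Gclm fell 4.09-fold and Gars 1.55-fold, and Stat2 rose 2.07-fold and Acta1 9.80-fold.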

How the data were processed

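RNA of 4 groups of 3 C2C12 libraries was sequenced in 2 runs each, the second a technical repeat per the labels. The authors assigned reads to mouse transcripts with kallisto 0.44.0 on mm10, per the submitters' processing notes, and each of the 24 deposited tables gives estimated counts, TPM and effective lengths per transcript. How reads were trimmed or filtered is not given in the sources used here. Per gene, the authors' deposited estimated counts of all its transcripts in both runs were added up and rounded. The deposited TPM values (transcripts per M transcripts, made by the authors with kallisto, per the submitters' processing notes) chose the transcript searched for seeds and weighted the authors' effective lengths, which enter 1 alternative. Identifiers of 116816 of 118489 transcripts matched GENCODE M21 (GRCm38). The rest held 0.587% to 0.619% of counts and were left out. Whether counting used strand is not given in the sources used here, so reads of overlapping antisense genes cannot be told apart, and near-identical genes were not merged.

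Genes were filtered with filterByExpr (14584 kept) and scaled by TMM (factors 0.952 to 1.04). Expression in a single group suffices to pass. One coefficient per group was estimated from the 12 libraries by edgeR 4.0.16 in R 4.3.3 (robust quasi-likelihood tests, 2-sided). Benjamini-Hochberg adjustment ran over all genes of a comparison, with a threshold of 0.05. CPM carry their standard deviation (SD) and log2 changes their standard error (SE). The common biological coefficient of variation was 0.0504. Self-tests were run on simulated counts with that same spread and known changes in a small part of the genes. In the data most genes were called, a setting that the self-tests did not cover. The members and the 50 gene lists were chosen with earlier results of these data known, and the lists' counts are descriptions.

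Genes named were Fem1b and Keap1, the 12 largest rises and falls (genes called, 5 CPM or more on average, named by a regular symbol, groups apart), up to 6 members of each list by p-value, regulators, and the 10 smallest p-values of the difference. Some genes that the rule names are not reported here. Alternatives were DESeq2 size factors, library totals, DESeq2 1.42.0, limma-voom (limma 3.58.1), other filters and thresholds, single runs, a length offset, the compared groups alone, a replicate block and each library left out. Chosen after seeing the data were a fit without genes with a siFem1b seed match and one with replicates 1 and 2 of each compared group summed. For seeds, the protein-coding transcript of a gene with the highest TPM was searched, and 3' UTRs were parted into classes of equal number by length. The deviations of same-numbered libraries correlated weakly (-0.08 to 0.12 over all pairs of groups), so replicate numbers were not used as pairs in the main fit. Figures were drawn with matplotlib 3.10.9.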

Additional observations from a re-analysis of the deposited data

Results flagged for a closer look

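The change on adding siFem1b differed between Keap1-depleted cells and cells with Keap1 for 1665 genes by the test of the difference itself (adjusted p under 0.05). The values below are differences in log2 change, Keap1-depleted minus control, for 35 genes that passed among 42 picked from those named above. The list is not complete, as other named genes passed this test too, such as Mmp15 and Ccng2. Among NRF2 targets and related genes, Slc7a11 stood at -2.93, Adh7 at -1.54, Aldh3a1 at -1.40, Gclm at -1.27, Blvrb at -1.19, Hmox1 at -0.91, Txnrd1 at -0.52, Srxn1 at -0.35 and Gclc at -0.25. Those of Gsta2, Gsta1 and Ftl1 were positive, at 1.5, 0.97 and 0.33. Among ATF4 and amino acid genes, the values were -1.64 for Slc6a9, -1.44 for Aldh1l2, -1.36 for Ass1, -0.98 for Slc7a5, -0.75 for Slc3a2, -0.55 for Mthfd2 and -0.43 for Shmt2. Acss2 stood at -1.88 and Pcx at -1.16. Among muscle and growth genes, C1qtnf3 stood at 3.12, Igfbp5 at 1.88, Myog at 1.70, Myl1 at 1.35, Chrnd at 0.69, Myod1 at -0.30 and Mest at -1.49. Lysosomal genes were positive, with Gpnmb at 1.34, Gpr137b at 1.09, Neu1 at 0.60 and Tpp1 at 0.47, as was Stat2 at 0.58. The keratins Krt14 and Krt16 stood at -1.37 and -2.04. Gpr137b, Acss2, Chrnd and Mest changed in opposite directions in the compared backgrounds. With 3 libraries in each group, no single library was tested as an outlier.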

How the results depend on the processing

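In siFem1b/Keap1 against siKeap1 the number of genes called lay between 7558 and 9606 over the alternatives other than a fold threshold. At least 1.5-fold changed 3462 genes, 2143 higher and 1319 lower (3079, 2079 and 1000 in cells with Keap1). With the replicate block 9125 were called, and with replicates 1 and 2 of each compared group summed 8360. The block is not read as a paired analysis here. The deviations of same-numbered libraries correlated between -0.03 and 0.09 in these groups (-0.08 to 0.12 over all pairs of groups). Not every library correlated best with its own number. The count of genes whose change differed between backgrounds depended more on the setting. It was 929 with the first run alone (306 more positive, 623 more negative), 1445 with the second (527 and 918), 837 with the length offset, 880 at an adjusted p under 0.01, 374 at 1.5-fold and 1022 with replicates summed. The balance, 890 more positive over 775 more negative, turned around with either run, DESeq2 or its size factors, the 5 CPM filter and each setting of the next sentence, and without siFem1b replicate 2 or 3 or siFem1b/Keap1 replicate 1 or 3. More positive differences numbered 402 with the offset, 431 at the stricter p, 135 at 1.5-fold, 503 with replicates summed and 550 without genes with a seed match. More negative ones numbered 435 with the offset, 449 at the stricter p and 239 at 1.5-fold. Leaving out 1 library gave 498 (without siFem1b/Keap1 replicate 1; 511 without siFem1b replicate 3 and 571 without siFem1b/Keap1 replicate 3) to 875 more positive and 600.0 to 1164 (without siFem1b replicate 2) more negative. Of 100 list counts (50 lists, each direction), 64 moved by over 1.5 times at 1.5-fold, 15 with library totals, 15 with the 5 CPM filter, 14 without seed genes, 9 with the first run and at most 5 with each other setting. With library totals the lower members numbered 5 for folliculin and TFE factors, 10 for glycolysis and 6 for SRF and YAP targets, and the higher ones 7 for ligase parts. The difference for Mmp15 turned to -0.0737 with the first run alone and that for Ccng2 to -0.0193 with the length offset, and neither then passed the test. The cause of these shifts was not tested, apart from fewer genes and counts where a run or library was left out. Depth limits the folds of genes near 0 counts in siKeap1, such as Myog (0.0367 CPM), Tnnt1 (0.0782 CPM) and Igf2 (0.0192 CPM).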
